A study of Homo sapiens with 12 samples.

Results

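Interferon-stimulated genes are genes whose transcription is switched on by interferons, and 41 of them were described in MCF10AT cells depleted of EP300, a histone acetyltransferase and transcriptional coactivator. They were chosen by name, as members of the antiviral programme, and their rows were read from a count table of 29094 RefSeq accessions. All 41 symbols were found, in 47 rows. MCF10AT is a mammary epithelial line that the labels give as transformed by HRasG12V. The first hairpin line, EP300 KD1, and the second, EP300 KD2, stably express different shRNAs against EP300, and NS2 and NS1 express a non-silencing control. All 4 lines carried a lentiviral shRNA, with polybrene at 10 µg/ml, and had been selected with puromycin at 1 µg/ml for 3 days. Each group had 3 libraries, 12 in all. Apart from the lentiviral vector, polybrene and puromycin, no virus, interferon or other stimulus is named in the labels. Any effect of the vector, polybrene or puromycin on the members was not tested. Each hairpin line was compared with the control line of the same number, EP300 KD1 with NS1 and EP300 KD2 with NS2, and NS2 was compared with NS1 as the background between lines that differ in no labelled treatment.

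Type I and type III interferons bind receptors at the cell surface and activate the kinases JAK1 and TYK2, which phosphorylate STAT proteins. STAT2 acts with IRF9 in a complex called ISGF3 that binds a DNA element, the interferon-stimulated response element (ISRE), in the promoters of its targets. Interferon-gamma acts through another element, the gamma-activated site (GAS). The products sense viral RNA, block translation, degrade RNA or hold back virions, and epithelial cells keep part of the set at a low level without infection.

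ISRE and GAS cores in the promoters of a selection of the members described library by library below are shown here, because they are the sites through which interferon signalling is known to reach such genes. Promoter windows are RefSeq's (GRCh38.p14), from 250 bases before to 50 bases after an annotated start, and position -1 is the base before that start. The cores searched were GAAANNGAAA for the ISRE and TTCNNNGAA for the GAS, on both strands. A GAS match can share bases with an ISRE match. Capitals mark the core, and each line is read 5′ to 3′ on the gene's strand. For genes with several ISRE cores the ISRE core farthest upstream is printed. The first 7 hold an ISRE core and the last 2 a GAS core without an ISRE core.
ISG20, chr15:88638932-88638971, plus strand: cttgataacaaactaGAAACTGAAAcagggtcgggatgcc
IFIT5, chr10:89414508-89414547, plus strand: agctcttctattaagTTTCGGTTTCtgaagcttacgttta
ISG15, chr1:1013369-1013408, plus strand: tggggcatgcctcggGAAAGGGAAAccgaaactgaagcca
PARP14, chr3:122680795-122680834, plus strand: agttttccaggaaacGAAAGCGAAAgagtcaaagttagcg
PLSCR1, chr3:146544662-146544701, minus strand: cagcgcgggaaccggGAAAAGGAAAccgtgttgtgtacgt
OAS3, chr12:112938316-112938355, plus strand: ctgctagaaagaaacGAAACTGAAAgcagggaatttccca
SAMD9, chr7:93118091-93118130, minus strand: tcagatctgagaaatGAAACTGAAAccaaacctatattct
IFI35, chr17:43006747-43006783, plus strand: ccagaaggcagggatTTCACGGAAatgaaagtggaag
SP110, chr2:230219999-230220037, minus strand: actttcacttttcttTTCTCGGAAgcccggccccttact

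Of the 41 members, 34 had a promoter window in that table, and 24 of the 34 (70.588%) held an ISRE core, against 4.376% of 27305 genes. A GAS core was found in 12 of the 34 (35.294%), against 9.376% of the 27305 genes. GBP2, IFIT2, IRF7, MX2, OAS2, OASL and TRIM22 had no entry. A match is a string of letters in a window and not a measured binding site.

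EP300 itself was measured at 108, 106 and 108 CPM, that is counts divided by a TMM-scaled library total, in the EP300 KD1 libraries and at 95.1, 99.9 and 92.3 CPM in the EP300 KD2 libraries, against 165, 180.3 and 177 CPM in NS2 and 171, 177 and 167 CPM in NS1. It was 62.4% ± 0.5 of NS1 in EP300 KD1 and 55.0% ± 2.2 of NS2 in EP300 KD2 (SD, n = 3 each), so both lines were partial depletions. Library totals were 31396653 to 35024772 counts in EP300 KD1, 31582157 to 40700951 in EP300 KD2, 32112613 to 33951970 in NS2 and 32674926 to 45606950 in NS1. The 10 mammary epithelial markers were all detected, although the basal keratin KRT14 did not exceed 1.11 CPM. The list is not purely basal, as it also holds KRT18, CDH1 and EPCAM, with KRT18 at 933 to 1539 CPM. Their summed level was 5183 to 5286 CPM in EP300 KD1 and 4458 to 4596 CPM in EP300 KD2, against 8323 to 8509 CPM in NS2 and 7333 to 7597 CPM in NS1. Of the 14 leukocyte markers 3 passed the filter on low counts, and MS4A1, NKG7 and CLEC4C were at 0 in every library. The leukocyte sum, carried by CD14 and CD68, was 68.0 to 75.2 CPM in EP300 KD1, 38.2 to 40.6 CPM in EP300 KD2, 66.2 to 68.1 CPM in NS2 and 52.6 to 63.6 CPM in NS1. CD14 fell with both hairpins (log2 fold changes -0.65 and -1.62), whereas CD68 rose with both (1.67 and 0.37). The sum of 8 fibroblast markers was 109 to 112 CPM in EP300 KD1, 56.4 to 58.3 CPM in EP300 KD2, 48.5 to 52.8 CPM in NS2 and 56.4 to 59.2 CPM in NS1, with COL1A2, COL3A1 and LUM at 0. The sum of 5 endothelial markers was 13.1 to 15.7 CPM in EP300 KD1, 6.40 to 7.04 CPM in EP300 KD2, 38.6 to 40.6 CPM in NS2 and 28.8 to 32.9 CPM in NS1, and PECAM1 was its most abundant gene. PECAM1 fell with both hairpins (log2 fold changes -1.60 and -2.84). TEK rose with both (4.08 and 1.89), and KDR rose in EP300 KD1 alone (0.71). TEK averaged only 0.246 ± 0.143 CPM in NS1 and 0.257 ± 0.0976 CPM in NS2, under the filter's cutoff of about 0.292 CPM. It averaged 4.14 ± 0.459 CPM in EP300 KD1 and 0.958 ± 0.139 CPM in EP300 KD2, and so passed the filter through the knockdown libraries. The part of these marker differences in the member results was not tested.

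Filtering on low counts left 32 of the 41 members for testing, among 13424 genes. Several strongly inducible genes had few or no counts. RSAD2, the antiviral enzyme viperin, had 14 counts over all 12 libraries. IFI27 had 6, the GTPase MX2 had 4, the transcription factor IRF7 had 31 and the ISG15 ligase HERC5 had 49. CMPK2, XAF1, IFIT1 and IFIT3 were each spread over several accession rows. IFIT1 and IFIT3 had 1 count each over the 12 libraries, and CMPK2 and XAF1 had 0. Because reads that fit several rows can be lost in counting, these near-zero values are uncertain, and no direction was read for the 9 untested members. Among the 32 tested, 29 averaged at least 1 CPM and 20 at least 10 CPM. OAS2, with 109 counts in all, exceeded the filter in 2 EP300 KD1, 2 EP300 KD2, 0 NS2 and 1 NS1 libraries and so lay at its edge. IFI6 and BST2 were low as well, with 250 and 263 counts, but exceeded it in all 3 EP300 KD1 and all 3 EP300 KD2 libraries. IFI6 did so in 2 NS2 and 2 NS1 libraries, and BST2 in 3 NS2 and 2 NS1 libraries.

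The interferon-stimulated genes did not move as a block. In EP300 KD1 13 members were higher than in NS1 and 12 were lower, by edgeR's quasi-likelihood test with Benjamini-Hochberg adjusted p under 0.05 over all 13424 genes. That is 40.6% and 37.5% of the 32 tested, against 32.6% of all genes higher and 32.3% lower (64.9% in either direction). In EP300 KD2 8 were higher and 14 lower than in NS2, or 25.0% and 43.8%, against 27.9% and 29.9% of all genes (57.8% in either direction). The median log2 fold change over the tested members was 0.02 in EP300 KD1 and -0.15 in EP300 KD2, beside -0.0058 and -0.0021 over all genes. Scaled by library totals alone, the members split into 10 higher and 12 lower in EP300 KD2, and 61.3% of all genes called in that comparison were higher, against 48.2% with TMM scaling. In bulk RNA, fewer cells of a type and less RNA per cell cannot be told apart.

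Both hairpins gave the same call for 16 members. Lower with both were OAS1, GBP2, IFI35, TRIM22, IFIT2, PLSCR1, SAMD9L, OAS3, SAMD9 and PARP9, which are 10 of 32 (31.2%), against 17.3% of all genes. Higher with both were ISG15, PARP14, SP110, EIF2AK2, IFIT5 and DDX60, which are 6 of 32 (18.8%), against 15.3% of all genes. ISG20 and HERC6 were called in opposite directions, a pattern seen in 11.2% of all genes. Of the others, 7 were called with EP300 KD1 alone, 4 with EP300 KD2 alone and 3 (OAS2, OASL and IFI44) with neither, where 21.1% of all genes fell. Whether or not the other hairpin was called, 64.9% of all genes were called in EP300 KD1 and 57.8% in EP300 KD2. The counts for 1 hairpin alone are therefore not read as a trait of the members. A change of at least 2-fold was called for 3 members in EP300 KD1 (OAS1, BST2 and IFI6; 10.2% of all genes) and for 2 in EP300 KD2 (OAS1 and GBP2; 8.08% of all genes). For 8 members (OAS1, GBP2, IFI35, TRIM22, IFIT2, PLSCR1, OAS3 and SAMD9) every knockdown library lay below every control library, a separation found in 15% of all genes, and for 5 (DDX60, EIF2AK2, IFIT5, PARP14 and SP110) every knockdown library lay above, as in 13.3% of all genes.

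**Figure D1:**
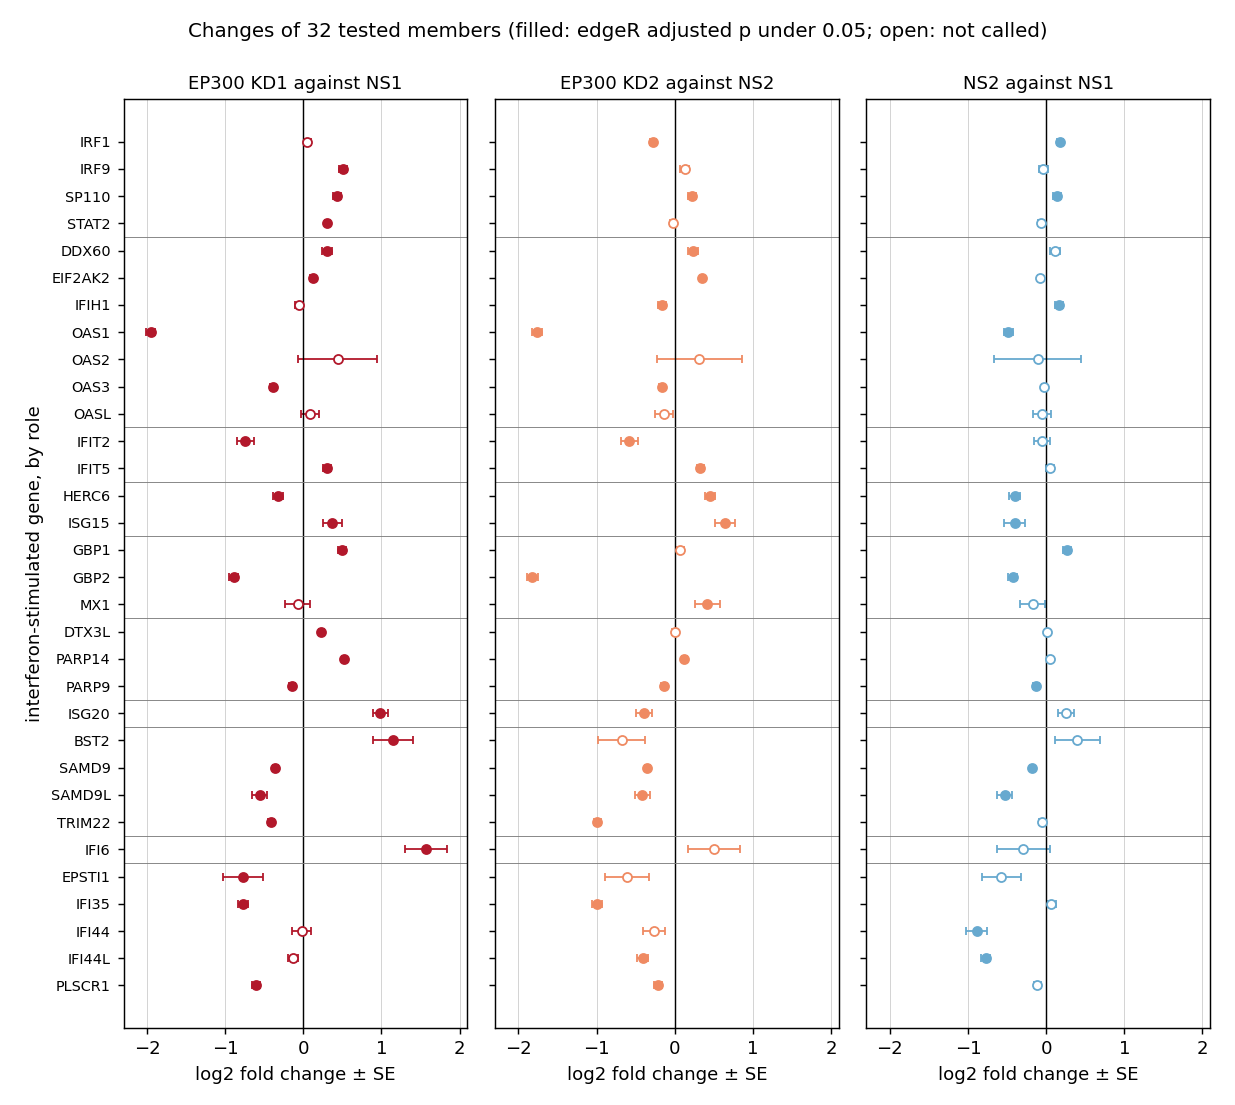
Log2 fold changes ± SE of the 32 tested interferon-stimulated genes, grouped by role, for the first hairpin (EP300 KD1 against NS1), the second (EP300 KD2 against NS2) and the 2 controls (NS2 against NS1; n = 3 libraries a group); filled points have an edgeR adjusted p under 0.05. OAS1 lies near -2 with both hairpins, at -1.95 and -1.76, while most members stay within 1 of zero.

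**Figure D2:**
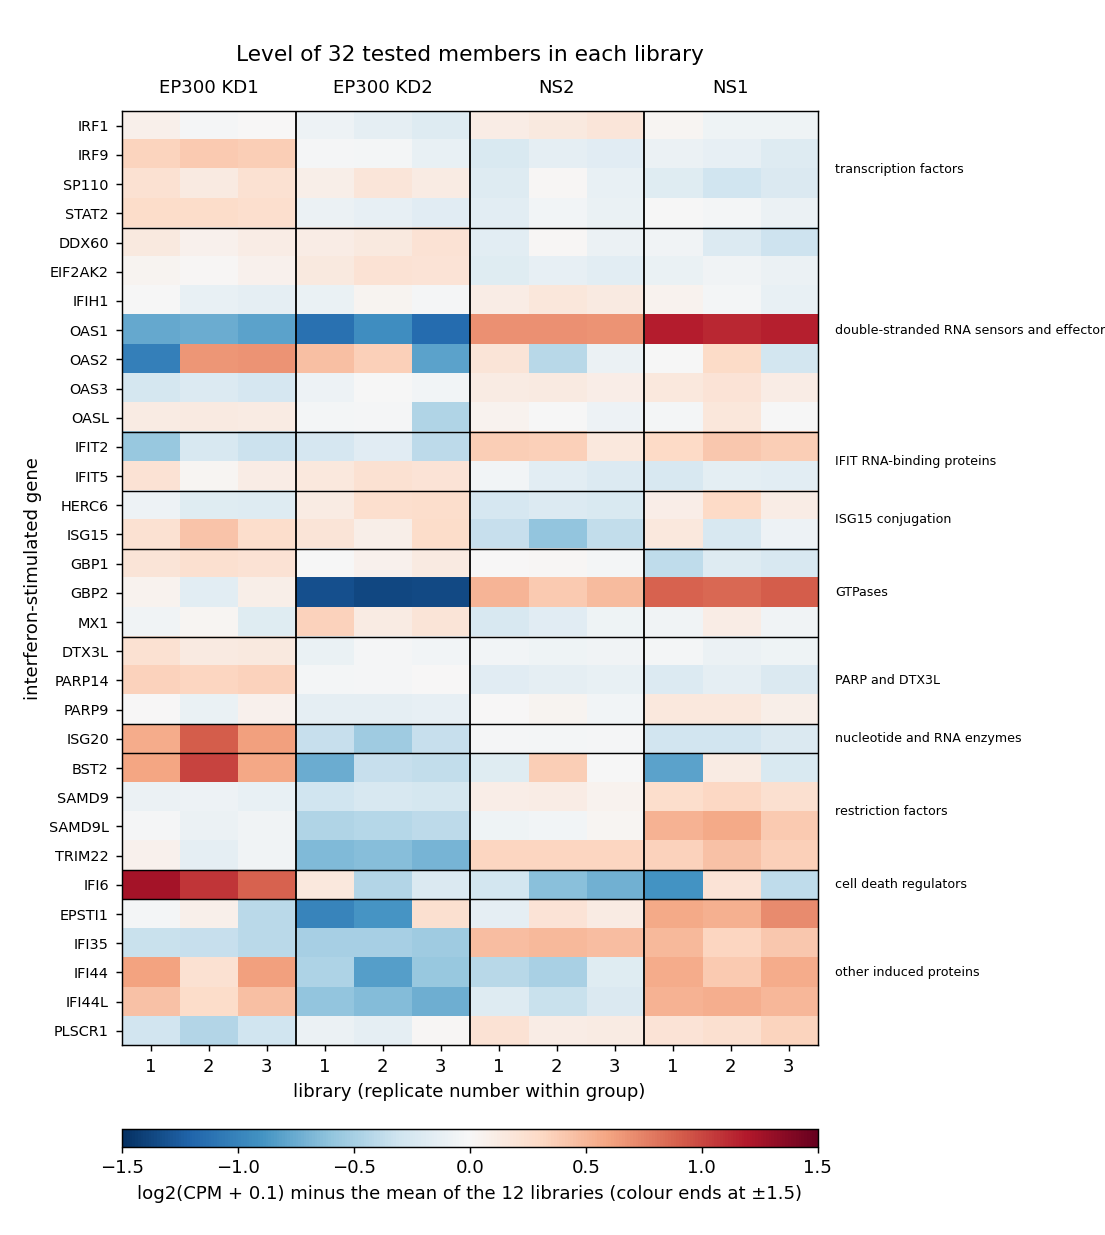
Level of the 32 tested members in each of the 12 libraries, as log2(CPM + 0.1) minus the mean over the libraries, in groups by role; red is above and blue below the mean. OAS1 and GBP2 are blue in the EP300 KD2 columns and red in both control groups, and the 3 libraries of a group mostly share a colour.

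Of the 4 tested transcription factors of the response, IRF9, STAT2 and SP110 rose in EP300 KD1, and with EP300 KD2 SP110 rose and IRF1 fell. IRF9, the DNA-binding subunit of ISGF3, averaged 17.2 ± 0.335 CPM in EP300 KD1 and 12.1 ± 0.461 CPM in NS1 (SD, n = 3 each), a log2 fold change of 0.51 ± 0.05 (SE; edgeR adjusted p = 1.4e-07), whereas it averaged 12.8 ± 0.479 CPM in EP300 KD2 and 11.7 ± 0.350 CPM in NS2 (edgeR adjusted p = 0.067). STAT2, its partner in that complex, averaged 58.5 ± 0.488 CPM in EP300 KD1 and 47.3 ± 1.27 CPM in NS1, and rose by 0.31 ± 0.04 on the log2 scale (edgeR adjusted p = 2.7e-07). In EP300 KD2 STAT2 averaged 44.4 ± 1.21 CPM, and in NS2 45.2 ± 1.92 CPM. IRF1, an early factor of the response, averaged 38.9 ± 1.58 CPM in EP300 KD2 and 47.2 ± 1.11 CPM in NS2, a log2 fold change of -0.28 ± 0.04 (edgeR adjusted p = 5.8e-06), but also differed by 0.18 ± 0.04 between NS2 and NS1. All 4 tested factors had a higher log2 fold change with the first hairpin than with the second, with a called difference, as did 29.2% of all genes. For 50.8% of all genes a difference was called in either direction. The SP110 difference lost its call in 7 of 21 alternatives and was 0.07 against both controls averaged (edgeR adjusted p = 0.26). Of all genes, 32.6% rose and 32.3% fell in EP300 KD1, and 27.9% rose and 29.9% fell in EP300 KD2.

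SP110, a nuclear body protein related to SP100, was at 30.6, 28.8 and 30.6 CPM in EP300 KD1 and at 27.8, 29.7 and 28.6 CPM in EP300 KD2, against 22.9, 26.6 and 24.3 CPM in NS2 and 23.1, 21.3 and 22.5 CPM in NS1. All 6 knockdown libraries exceeded all 6 control libraries. Its log2 fold changes were 0.43 ± 0.05 in EP300 KD1 and 0.22 ± 0.05 in EP300 KD2 (edgeR adjusted p = 4.4e-07 and 0.00093). SP110 shares 39486 bases of its span with SP140 on the other strand, whose log2 fold changes were 2.88 ± 0.13 and 2.64 ± 0.13, from a mean of 3.04 CPM over the 12 libraries. The strand setting of the counting is not stated in the labels, and the part of SP140 reads in the SP110 counts was not tested.

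Among the 7 double-stranded RNA sensors and effectors, OAS1 and OAS3 fell with both hairpins, as did 17.3% of all genes, and EIF2AK2 and DDX60 rose with both, as did 15.3%. The OAS enzymes make 2′-5′ oligoadenylates, which activate the nuclease RNase L. OAS1 was at 6.29, 6.39 and 6.15 CPM in EP300 KD1 and at 4.92, 5.63 and 4.81 CPM in EP300 KD2, against 17.5, 17.4 and 17.2 CPM in NS2 and 24.6, 23.8 and 24.4 CPM in NS1. The 6 knockdown libraries thus lay far below the 6 control libraries, with 25.8% ± 0.5 of the NS1 level in EP300 KD1 and 29.5% ± 2.6 of the NS2 level in EP300 KD2 (SD, n = 3 each). Its log2 fold changes, -1.95 ± 0.06 and -1.76 ± 0.06 (edgeR adjusted p = 1.2e-15 and 1.5e-14), had the largest absolute value among called members in EP300 KD1 and the second largest, after GBP2, in EP300 KD2. The control lines differed as well, with a log2 fold change of -0.48 ± 0.05 in NS2 against NS1 (edgeR adjusted p = 1.9e-06). The difference between the hairpins was -0.19 ± 0.09 (edgeR adjusted p = 0.083).

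OAS3, an OAS paralog with several catalytic-type domains, was at 67.5, 70.3 and 68.3 CPM in EP300 KD1 and at 77.0, 80.6 and 79.1 CPM in EP300 KD2, against 88.6, 89.4 and 87.2 CPM in NS2 and 90.2, 93.2 and 87.7 CPM in NS1. No knockdown library reached a control library. OAS3 had log2 fold changes of -0.39 ± 0.03 and -0.17 ± 0.03 (edgeR adjusted p = 1.2e-09 and 0.0001). The other paralogs were not called: OAS2 averaged 0.310 ± 0.213 CPM in EP300 KD1, 0.260 ± 0.145 CPM in EP300 KD2, 0.217 ± 0.067 CPM in NS2 and 0.239 ± 0.0656 CPM in NS1, and OASL averaged 4.11 ± 0.0175, 3.37 ± 0.567, 3.73 ± 0.161 and 3.89 ± 0.307 CPM in the same 4 groups. OAS1, OAS2, OAS3 and OASL therefore ranged from no call to a fall of 1.95 on the log2 scale within 1 gene family.

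EIF2AK2, which encodes the kinase PKR that phosphorylates eIF2 alpha upon binding double-stranded RNA, was at 74.3, 72.8 and 75.2 CPM in EP300 KD1 and at 79.9, 83.7 and 83.2 CPM in EP300 KD2, against 63.2, 66.1 and 64.5 CPM in NS2 and 67.3, 69.5 and 67.8 CPM in NS1. Every knockdown library was above every control library. PKR's log2 fold changes of 0.12 ± 0.03 and 0.35 ± 0.03 (edgeR adjusted p = 0.0016 and 6.6e-09) differed between the hairpins by -0.23 ± 0.04 (edgeR adjusted p = 0.00016). DDX60, a helicase linked to RIG-I signalling, averaged 16.2 ± 0.474 CPM in EP300 KD1 and 13.2 ± 1.21 CPM in NS1, and 16.8 ± 0.646 CPM in EP300 KD2 and 14.2 ± 0.876 CPM in NS2. It rose by 0.30 ± 0.07 and 0.24 ± 0.07 on the log2 scale (edgeR adjusted p = 0.00059 and 0.0044). IFIH1, the RNA sensor MDA5, averaged 22.9 ± 1.15 CPM in EP300 KD2 and 25.7 ± 0.559 CPM in NS2, a log2 fold change of -0.17 ± 0.05 (edgeR adjusted p = 0.0082), but this call was lost without EP300 KD2 replicate 1 and, among other settings, with library totals alone. NS2 against NS1 differed by an equal size in IFIH1, 0.17 ± 0.05.

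**Figure D3:**
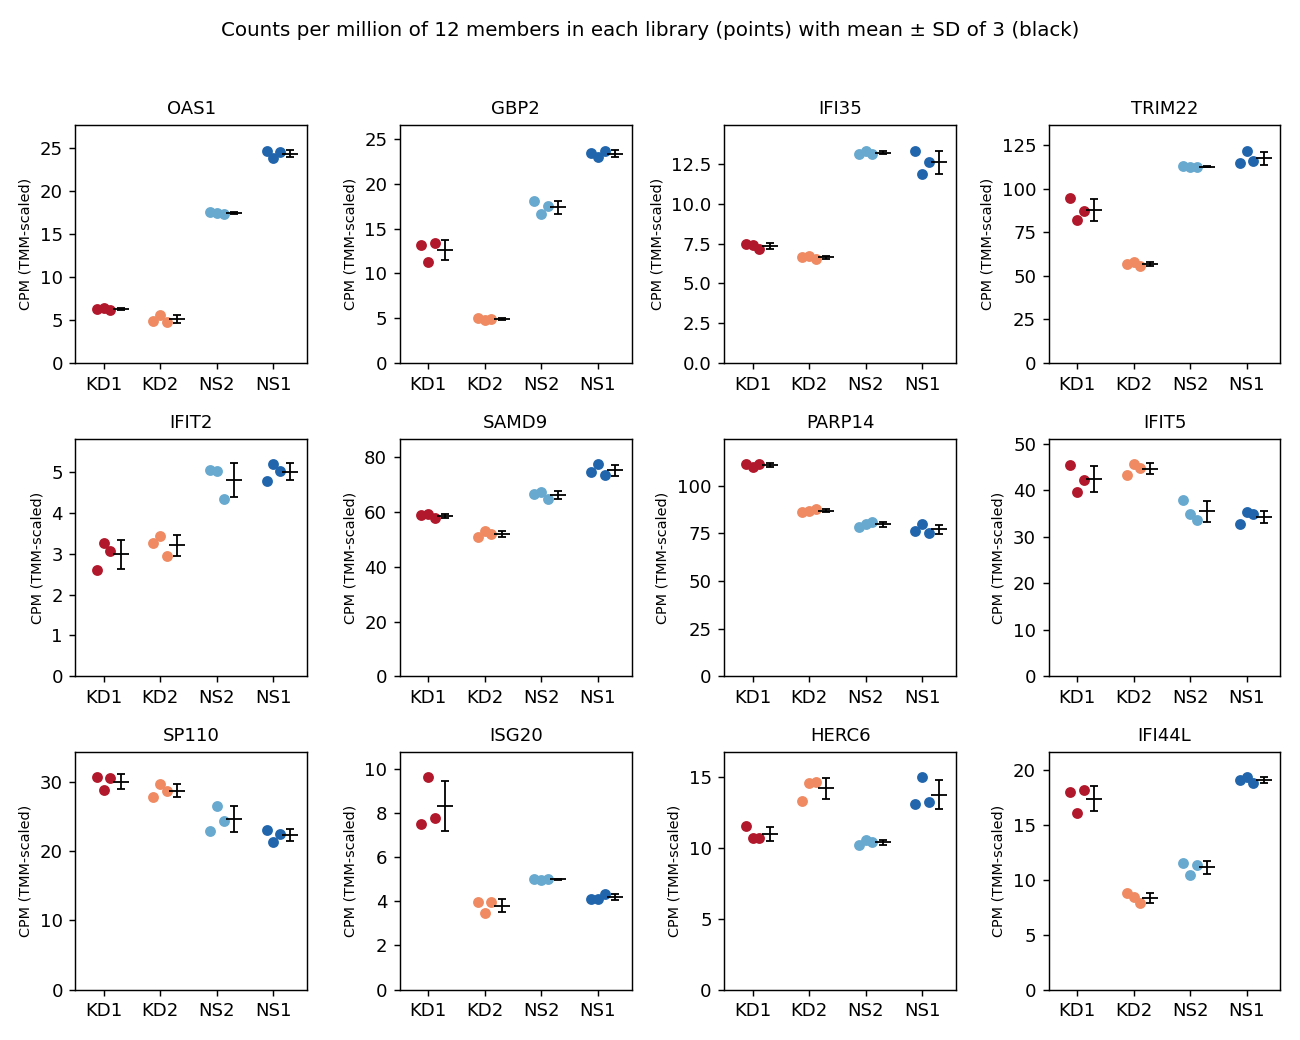
TMM-scaled CPM of 12 members in each library (coloured points) with the mean ± SD of the 3 libraries (black), on axes that start at 0, for EP300 KD1, EP300 KD2, NS2 and NS1. In OAS1, GBP2, IFI35, TRIM22, IFIT2 and SAMD9 the 6 knockdown points lie below the 6 control points, in PARP14, IFIT5 and SP110 above them, and ISG20, HERC6 and IFI44L show lines that part in other ways.

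The IFIT proteins bind viral RNA and the initiation factor eIF3, and the 2 tested members moved in opposite directions. IFIT2 was at 2.60, 3.27 and 3.08 CPM in EP300 KD1 and at 3.26, 3.43 and 2.93 CPM in EP300 KD2, against 5.06, 5.03 and 4.33 CPM in NS2 and 4.79, 5.19 and 5.03 CPM in NS1. Knockdown and control libraries did not overlap. IFIT2 fell by 0.74 ± 0.11 and 0.58 ± 0.11 on the log2 scale (edgeR adjusted p = 6.9e-06 and 0.00013). IFIT5 was at 45.5, 39.7 and 42.2 CPM in EP300 KD1 and at 43.4, 45.7 and 44.8 CPM in EP300 KD2, against 38.0, 34.9 and 33.7 CPM in NS2 and 32.9, 35.3 and 34.9 CPM in NS1. Here the knockdown libraries were all higher, and the log2 fold changes were 0.30 ± 0.05 and 0.33 ± 0.05 (edgeR adjusted p = 2.8e-05 and 1.2e-05). The span annotated for LIPA covers IFIT2 whole and 112 bases of IFIT5. LIPA averaged 100.1 CPM over the 12 libraries and had log2 fold changes of -0.03 ± 0.03 and -0.31 ± 0.03. The part of LIPA reads in these counts was not tested.

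ISG15 is a ubiquitin-like modifier and HERC6 belongs to the family of its ligases. ISG15 was at 3.11, 3.58 and 3.19 CPM in EP300 KD1 and at 3.04, 2.80 and 3.21 CPM in EP300 KD2, against 2.05, 1.72 and 2.03 CPM in NS2 and 2.95, 2.21 and 2.49 CPM in NS1. The EP300 KD1 libraries lay above those of NS1, and the EP300 KD2 libraries above those of NS2, although NS1 replicate 1 exceeded EP300 KD2 replicate 2. The log2 fold changes were 0.37 ± 0.12 and 0.64 ± 0.13 (edgeR adjusted p = 0.014 and 0.00033), with -0.40 ± 0.13 between NS2 and NS1. The call in EP300 KD1 was lost without NS1 replicate 2 (0.29, edgeR adjusted p = 0.068), without EP300 KD1 replicate 2 (0.31, edgeR adjusted p = 0.067) and in DESeq2 (adjusted p = 0.053).

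HERC6 was at 11.5, 10.7 and 10.7 CPM in EP300 KD1, at 13.3, 14.6 and 14.7 CPM in EP300 KD2, at 10.2, 10.5 and 10.4 CPM in NS2 and at 13.1, 14.97 and 13.2 CPM in NS1. The EP300 KD1 and NS2 libraries lay low and the EP300 KD2 and NS1 libraries high, and the log2 fold changes had opposite signs, -0.32 ± 0.07 and 0.45 ± 0.07 (edgeR adjusted p = 0.00029 and 1.1e-05). The controls differed by -0.40 ± 0.07 in NS2 against NS1 (edgeR adjusted p = 0.00016). Against the mean of both controls, the log2 fold change in EP300 KD1 was -0.12 ± 0.06 (edgeR adjusted p = 0.074).

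Of the 3 tested GTPases, GBP2 fell with both hairpins, as did 17.3% of all genes. GBP1 rose with the first, as did 32.6%, and MX1 with the second, as did 27.9%. GBP2, a guanylate-binding protein that coats pathogen vacuoles, was at 13.1, 11.3 and 13.4 CPM in EP300 KD1 and at 5.00, 4.84 and 4.88 CPM in EP300 KD2, against 18.0, 16.6 and 17.5 CPM in NS2 and 23.4, 23.0 and 23.7 CPM in NS1. Its libraries fell into 4 separate levels, and all knockdown libraries were below all controls. The log2 fold changes of -0.89 ± 0.06 and -1.83 ± 0.07 (edgeR adjusted p = 1.9e-10 and 4.4e-14) differed by 0.94 ± 0.09 between hairpins (edgeR adjusted p = 1.1e-07), and NS2 differed from NS1 by -0.43 ± 0.06. GBP1, its neighbour on chromosome 1, averaged 23.2 ± 0.360 CPM in EP300 KD1 and 16.5 ± 1.09 CPM in NS1, a rise of 0.49 ± 0.05 on the log2 scale (edgeR adjusted p = 8.5e-08), and averaged 20.9 ± 0.995 CPM in EP300 KD2 and 19.9 ± 0.295 CPM in NS2. For GBP1 the controls differed as well, by 0.27 ± 0.05 on the log2 scale in NS2 against NS1 (edgeR adjusted p = 0.00066). MX1, a dynamin-like GTPase, averaged 1.30 ± 0.113 CPM in EP300 KD2 and 0.975 ± 0.0651 CPM in NS2 (log2 fold change 0.42 ± 0.16, edgeR adjusted p = 0.044). The MX1 call was lost in DESeq2 (adjusted p = 0.16) and without any of NS2 replicates 1 and 2 and EP300 KD2 replicates 1 and 3.

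PARP14, PARP9 and DTX3L encode mono-ADP-ribosyltransferase proteins and the ubiquitin ligase that partners PARP9, and their genes lie close together on chromosome 3. PARP14 was at 111, 109.9 and 111 CPM in EP300 KD1 and at 86.1, 86.8 and 87.7 CPM in EP300 KD2, against 78.3, 79.8 and 81.2 CPM in NS2 and 76.4, 79.7 and 75.2 CPM in NS1. All knockdown libraries were above all controls, by a wider margin with the first hairpin. The log2 fold changes of 0.53 ± 0.03 and 0.12 ± 0.03 (edgeR adjusted p = 3.7e-12 and 0.00098) differed by 0.40 ± 0.04 (edgeR adjusted p = 8.5e-08). DTX3L averaged 100.5 ± 3.31 CPM in EP300 KD1 and 85.5 ± 1.60 CPM in NS1 and rose by 0.23 ± 0.03 on the log2 scale (edgeR adjusted p = 1.4e-06), while it averaged 86.0 ± 2.32 CPM in EP300 KD2 and 86.1 ± 0.617 CPM in NS2. PARP9 fell by 0.14 ± 0.04 in EP300 KD1 and by 0.13 ± 0.04 in EP300 KD2 (edgeR adjusted p = 0.0047 and 0.0088), beside a log2 fold change of -0.13 ± 0.04 in NS2 against NS1. The PARP9 call in EP300 KD1 was lost against both controls averaged (-0.08, adjusted p = 0.058), and that in EP300 KD2 was lost in 4 of 22 alternatives, among them library totals alone (adjusted p = 0.17) and the fit without NS2 replicate 2 (adjusted p = 0.063). The annotated spans of PARP9 and DTX3L overlap by 447 bases on opposite strands.

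ISG20, an exonuclease that degrades single-stranded RNA, was the member with the largest called opposite response. It was at 7.51, 9.60 and 7.78 CPM in EP300 KD1 and at 3.97, 3.46 and 3.95 CPM in EP300 KD2, against 4.99, 4.97 and 5.01 CPM in NS2 and 4.11, 4.12 and 4.33 CPM in NS1. EP300 KD1 stood above both controls and EP300 KD2 below both. The log2 fold changes were 0.99 ± 0.10 and -0.39 ± 0.10 (edgeR adjusted p = 4.9e-08 and 0.0032), and their difference was 1.38 ± 0.14 (edgeR adjusted p = 1.9e-07).

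Restriction factors block steps of viral replication inside or at the surface of the cell, and TRIM22, SAMD9 and SAMD9L, 3 of the 4 tested, fell with both hairpins, against 17.3% of all genes. TRIM22, a ubiquitin ligase, was at 94.4, 82.1 and 87.2 CPM in EP300 KD1 and at 56.9, 57.9 and 55.5 CPM in EP300 KD2, against 113, 112 and 113 CPM in NS2 and 115, 122 and 116 CPM in NS1. Its control libraries stayed within a narrow band that no knockdown library reached. TRIM22's log2 fold changes of -0.42 ± 0.04 and -0.99 ± 0.04 (edgeR adjusted p = 1.4e-08 and 1e-13) differed by 0.57 ± 0.06 (edgeR adjusted p = 7.9e-08), and NS2 against NS1 was not called (edgeR adjusted p = 0.28).

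SAMD9, which inhibits poxvirus replication, was at 58.8, 59.1 and 57.8 CPM in EP300 KD1 and at 50.8, 53.0 and 51.9 CPM in EP300 KD2, against 66.6, 67.4 and 64.7 CPM in NS2 and 74.7, 77.5 and 73.5 CPM in NS1. All 6 knockdown libraries were lower than the controls. Log2 fold changes were -0.36 ± 0.03 and -0.35 ± 0.03 (edgeR adjusted p = 4.3e-09 and 1e-08), beside -0.18 ± 0.03 in NS2 against NS1. SAMD9L, its neighbour and paralog, was at 3.24, 3.07 and 3.16 CPM in EP300 KD1 and at 2.38, 2.42 and 2.47 CPM in EP300 KD2, against 3.13, 3.19 and 3.35 CPM in NS2 and 4.76, 4.89 and 4.35 CPM in NS1. EP300 KD1 lay at the level of NS2 while below NS1. Its log2 fold changes of -0.56 ± 0.09 and -0.41 ± 0.10 (edgeR adjusted p = 3.8e-05 and 0.0017) were similar in size to the -0.53 ± 0.09 between the 2 controls (edgeR adjusted p = 0.00033).

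BST2, or tetherin, which holds budding virions at the membrane, was low throughout, at 0.931, 1.29 and 0.929 CPM in EP300 KD1 and at 0.309, 0.440 and 0.432 CPM in EP300 KD2, against 0.506, 0.782 and 0.584 CPM in NS2 and 0.292, 0.645 and 0.486 CPM in NS1. The EP300 KD1 libraries lay above all others. BST2 rose by 1.15 ± 0.26 on the log2 scale in EP300 KD1 (edgeR adjusted p = 0.0007), and its log2 fold change in EP300 KD2 was -0.68 ± 0.30 (edgeR adjusted p = 0.057). With the low counts, 263 over all 12 libraries, the second value passed the threshold in 5 of 21 alternatives. IFI6, a small membrane protein that inhibits apoptosis, was at 1.38, 1.20 and 1.05 CPM in EP300 KD1 and at 0.595, 0.357 and 0.432 CPM in EP300 KD2, against 0.411, 0.301 and 0.277 CPM in NS2 and 0.233, 0.615 and 0.375 CPM in NS1. Again the EP300 KD1 libraries were above the rest, with a log2 fold change of 1.57 ± 0.27 (edgeR adjusted p = 4.2e-05), against 0.50 ± 0.33 in EP300 KD2 (edgeR adjusted p = 0.21).

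Among 5 other induced proteins, IFI35 and PLSCR1 fell with both hairpins, against 17.3% of all genes, and none rose with either. IFI35 was at 7.51, 7.42 and 7.17 CPM in EP300 KD1 and at 6.68, 6.70 and 6.51 CPM in EP300 KD2, against 13.1, 13.3 and 13.2 CPM in NS2 and 13.3, 11.9 and 12.6 CPM in NS1. The knockdown lines held 58.4% ± 1.4 of NS1 and 50.2% ± 0.8 of NS2 (SD, n = 3 each), with controls that overlapped. IFI35 had log2 fold changes of -0.78 ± 0.06 in EP300 KD1 and -0.99 ± 0.07 in EP300 KD2 (edgeR adjusted p = 4.0e-09 and 1.4e-10), and the control lines had no called difference (edgeR adjusted p = 0.48). PLSCR1, a phospholipid scramblase that potentiates the response, was at 40.4, 36.4 and 40.1 CPM in EP300 KD1 and at 46.5, 45.0 and 50.0 CPM in EP300 KD2, against 57.3, 53.3 and 53.5 CPM in NS2 and 56.7, 58.1 and 62.1 CPM in NS1. No knockdown library overlapped a control. Its log2 fold changes of -0.60 ± 0.05 and -0.22 ± 0.05 (edgeR adjusted p = 2.5e-09 and 0.00076) differed by -0.39 ± 0.07 (edgeR adjusted p = 0.00011).

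IFI44L and IFI44, neighbours on chromosome 1, had a larger fold change between the controls than with either hairpin. IFI44L averaged 17.4 ± 1.17 CPM in EP300 KD1 and 8.35 ± 0.428 CPM in EP300 KD2, against 11.1 ± 0.588 CPM in NS2 and 19.0 ± 0.271 CPM in NS1. It fell by 0.41 ± 0.07 on the log2 scale in EP300 KD2 (edgeR adjusted p = 3.5e-05), and NS2 fell by 0.78 ± 0.06 against NS1 (edgeR adjusted p = 2.9e-08). IFI44 averaged 4.60 ± 0.685 CPM in EP300 KD1, 2.09 ± 0.279 CPM in EP300 KD2, 2.52 ± 0.302 CPM in NS2 and 4.65 ± 0.303 CPM in NS1. It was not called with either hairpin and had the largest called control difference of all members, -0.89 ± 0.13 (edgeR adjusted p = 5.4e-05). EPSTI1, at 0.931, 1.00 and 0.697 CPM in EP300 KD1 and at 1.46, 1.41 and 1.61 CPM in NS1, fell by 0.77 ± 0.25 (edgeR adjusted p = 0.012), a call lost without EP300 KD1 replicate 3 (edgeR adjusted p = 0.062) and against both controls averaged (-0.49, edgeR adjusted p = 0.072). In EP300 KD2 EPSTI1 was at 0.428, 0.467 and 1.14 CPM and in NS2 at 0.853, 1.11 and 1.04 CPM. That result depended strongly on EP300 KD2 replicate 3. The log2 fold change was -0.61 ± 0.28 with it (edgeR adjusted p = 0.074) and -1.16 without it (edgeR adjusted p = 0.00039). The value passed the threshold in 3 of 22 alternatives, that fit among them.

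The 2 control lines differed in 13 of the 32 tested members, 4 higher and 9 lower in NS2, or 12.5% and 28.1%, against 14.2% and 13.4% of all genes (27.5% in either direction). The higher count fell to 2 without NS1 replicate 3 and to 2 without NS2 replicate 2. The absolute log2 fold change between controls exceeded that of EP300 KD1 against NS1 for 7 members, and that of EP300 KD2 against NS2 for 7 members. No member differed 2-fold between controls, as did 1.3% of all genes. The same NS2 and NS1 libraries serve in the hairpin comparisons, so these values are not independent of those.

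Changes with the first hairpin were tested against those with the second, as (EP300 KD1 - NS1) - (EP300 KD2 - NS2). The difference was called for 17 of 32 members, 13 with a higher and 4 with a lower value in EP300 KD1, or 40.6% and 12.5%, against 29.2% and 21.6% of all genes (50.8% in either direction). BST2, ISG20 and IFI6 had differences above 1 on the log2 scale, as did 5.71% of all genes in either direction, but the IFI6 call was lost in 14 of 21 alternatives. EP300 itself had a difference of 0.18 ± 0.05 (edgeR adjusted p = 0.0049), the depletion being deeper with the second hairpin. That call was lost with library totals alone (0.11, adjusted p = 0.063). Of all genes with a called difference, 57.4% were higher with TMM scaling and 45.2% with library totals alone, and the members then split into 10 higher and 5 lower.

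Genes upstream of the response were mostly higher with the first hairpin and mixed with the second. Of 9 interferon genes only IFNE, an epithelial type I interferon, passed the filter. It averaged 6.42 ± 0.824 CPM in EP300 KD1 and 3.69 ± 0.448 CPM in NS1, but 3.48 ± 0.0769 CPM in EP300 KD2 and 4.77 ± 0.184 CPM in NS2, with log2 fold changes of 0.80 ± 0.11 and -0.45 ± 0.11 (edgeR adjusted p = 2.7e-06 and 0.0018). The controls differed in IFNE as well, by 0.37 ± 0.11 in NS2 against NS1 (edgeR adjusted p = 0.018). IFNB1, IFNA1, IFNG, IFNL2 and IFNW1 had 0 counts in every library. Of the 9 receptor and JAK genes, 6 rose and 0 fell in EP300 KD1, and 3 rose and 4 fell in EP300 KD2, against 32.6% and 32.3% of all genes in EP300 KD1 and 27.9% and 29.9% in EP300 KD2. IFNAR2, a chain of the type I receptor, averaged 26.8 ± 0.599 CPM in EP300 KD1 and 15.4 ± 0.0290 CPM in NS1, and 22.7 ± 1.13 CPM in EP300 KD2 and 16.4 ± 0.0644 CPM in NS2. It rose by 0.80 ± 0.04 and 0.47 ± 0.05 on the log2 scale (edgeR adjusted p = 1e-11 and 4e-08). JAK2, the kinase of the interferon-gamma receptor, rose by 0.87 ± 0.05 and 0.54 ± 0.06 (edgeR adjusted p = 5.3e-11 and 9.1e-08). IFNGR1, the ligand-binding chain for interferon-gamma, rose by 0.13 ± 0.03 in EP300 KD1 and fell by 0.41 ± 0.03 in EP300 KD2.

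**Figure D4:**
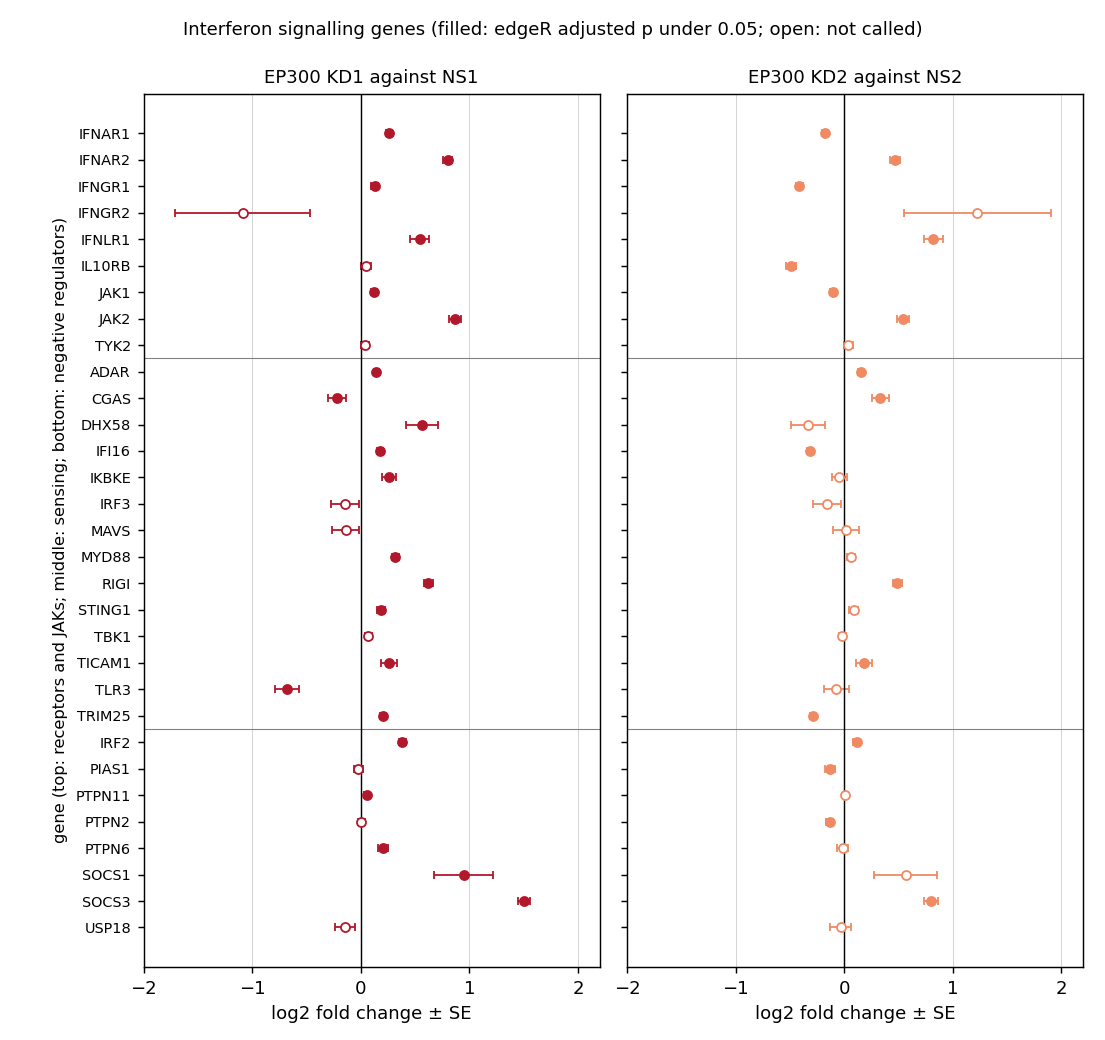
Log2 fold changes ± SE of 9 receptor and JAK genes (top), 14 nucleic acid sensing genes (middle) and 8 negative regulators (bottom) in EP300 KD1 against NS1 and EP300 KD2 against NS2 (n = 3 libraries a group); filled points have an edgeR adjusted p under 0.05. IFNAR2, JAK2, RIGI and SOCS3 lie right of 0 in both panels, while IFNGR1, TRIM25 and IFI16 lie on opposite sides.

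Of 14 tested nucleic acid sensing genes, 9 rose and 2 fell in EP300 KD1, where 32.6% and 32.3% of all genes did, and 4 rose and 2 fell in EP300 KD2, where 27.9% and 29.9% did. RIGI, the RNA sensor RIG-I, averaged 32.6 ± 0.550 CPM in EP300 KD1 and 21.2 ± 1.03 CPM in NS1, and 30.1 ± 0.899 CPM in EP300 KD2 and 21.4 ± 0.806 CPM in NS2, with log2 fold changes of 0.62 ± 0.04 and 0.49 ± 0.04 (edgeR adjusted p = 2e-10 and 1e-08). TRIM25, the ubiquitin ligase that activates RIG-I, had log2 fold changes of 0.20 ± 0.03 and -0.29 ± 0.03, and IFI16, a DNA sensor, 0.17 ± 0.03 and -0.31 ± 0.03, all called. For TRIM25 the log2 fold change of NS2 against NS1 was also 0.20 ± 0.03 (edgeR adjusted p = 1.6e-05), as large as that in EP300 KD1. MYD88, the Toll-like receptor adaptor, rose by 0.32 ± 0.03 in EP300 KD1 alone. Against the same shares of all genes, 5 of 8 negative regulators rose and 0 fell in EP300 KD1, and 2 rose and 2 fell in EP300 KD2. SOCS3, a feedback inhibitor of JAK kinases, averaged 29.7 ± 0.800 CPM in EP300 KD1 and 10.4 ± 0.487 CPM in NS1, and 16.3 ± 0.363 CPM in EP300 KD2 and 9.36 ± 0.803 CPM in NS2. It rose by 1.505 ± 0.06 and 0.80 ± 0.06 (edgeR adjusted p = 3.1e-14 and 1.6e-09). IRF2, an ISRE-binding repressor, rose by 0.38 ± 0.03 and 0.11 ± 0.03.

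A further 26 tested interferon-induced genes that are not among the 41 had 17 higher and 5 lower in EP300 KD1, and 13 higher and 7 lower in EP300 KD2. The shares of all genes were 32.6% and 32.3% in EP300 KD1 and 27.9% and 29.9% in EP300 KD2. In these, 13 rose and 4 fell with both hairpins, against 15.3% and 17.3% of all genes. SP100, the nuclear body protein, averaged 93.6 ± 1.59 CPM in EP300 KD1 and 59.4 ± 1.02 CPM in NS1, and 76.9 ± 1.13 CPM in EP300 KD2 and 59.0 ± 0.681 CPM in NS2, and rose by 0.66 ± 0.03 and 0.38 ± 0.03 on the log2 scale (edgeR adjusted p = 1.1e-13 and 7.5e-10). MLKL, the effector of necroptosis, rose by 0.51 ± 0.03 and 0.39 ± 0.03. UBE2L6, the conjugating enzyme for ISG15, averaged 15.04 ± 0.255 CPM in EP300 KD1 and 4.02 ± 0.270 CPM in NS1, a log2 fold change of 1.90 ± 0.10 (edgeR adjusted p = 2.4e-12), against 3.93 ± 0.202 CPM in EP300 KD2 and 3.74 ± 0.646 CPM in NS2. APOL6 fell by 0.30 ± 0.03 and 0.77 ± 0.03, beside a called log2 fold change of 0.21 ± 0.03 in NS2 against NS1.

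Of 9 tested genes of MHC class I antigen presentation, 5 rose and 1 fell in EP300 KD1, beside 32.6% and 32.3% of all genes, and 4 rose and 1 fell in EP300 KD2, beside 27.9% and 29.9%. ERAP1, which trims peptides, rose by 0.69 ± 0.04 in EP300 KD1 alone, and NLRC5, the class I transactivator, rose by 0.18 ± 0.05 and 0.40 ± 0.06. The controls had called differences too, with log2 fold changes in NS2 against NS1 of 0.15 ± 0.05 for ERAP1 and -0.33 ± 0.06 for NLRC5. PSMB10, an immunoproteasome subunit, fell by 0.29 ± 0.06 and 0.25 ± 0.06. HLA-B averaged 7.68 ± 0.538 CPM in EP300 KD1, 2.24 ± 0.271 CPM in EP300 KD2, 1.39 ± 0.115 CPM in NS2 and 2.41 ± 0.230 CPM in NS1. Reads of HLA genes can be split among near-identical copies, so these values are uncertain. Of 8 tested interferon-gamma responsive genes, 5 rose and 1 fell in EP300 KD1, and 2 rose and 4 fell in EP300 KD2, beside the same shares of all genes. ICAM1, an adhesion molecule, averaged 21.6 ± 1.08 CPM in EP300 KD1 and 4.10 ± 0.369 CPM in NS1, and 9.46 ± 0.302 CPM in EP300 KD2 and 4.69 ± 0.876 CPM in NS2, with log2 fold changes of 2.39 ± 0.10 and 1.01 ± 0.10 (edgeR adjusted p = 7.6e-14 and 6.3e-08). CD74, the invariant chain, rose by 1.69 ± 0.11 and 1.22 ± 0.13. The chemokine CXCL10 averaged 0.259 ± 0.0305 CPM in EP300 KD1 and 0.897 ± 0.150 CPM in NS1, and 0.210 ± 0.102 CPM in EP300 KD2 and 1.02 ± 0.134 CPM in NS2, and fell by 1.77 ± 0.28 and 2.22 ± 0.28 (edgeR adjusted p = 2e-05 and 1.6e-06). Every knockdown library lay under the filter's cutoff of about 0.292 CPM and every control library above it. CXCL10 was thus tested only through its control level, and these p-values are not read as support. WARS1, a tRNA synthetase, had log2 fold changes of 0.34 ± 0.04 and -0.16 ± 0.03. It averaged 238 ± 3.38 CPM in EP300 KD2, under NS2 (265 ± 16.4 CPM) but above NS1 (215 ± 7.69 CPM). NS2 against NS1 was called for WARS1 (0.30 ± 0.04) and for CD74 (-0.61 ± 0.14).

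Members with an ISRE core moved in both directions. Of the 27 tested members with a promoter window, 19 held the core. In EP300 KD1 10 of these rose and 5 fell, with log2 fold changes from -0.77 to 1.57 and a median of 0.12, and of the 8 without it 3 rose and 4 fell. In EP300 KD2 6 of the 19 rose and 7 fell, with log2 fold changes from -0.68 to 0.64 and a median of -0.13, and of the 8 without it 2 rose and 4 fell. Cores of the same letters, GAAACTGAAA, stand before ISG20, OAS3 and SAMD9 in the lines printed above, and of these ISG20 rose with the first hairpin and fell with the second, while OAS3 and SAMD9 fell with both. Of all genes, 32.6% rose and 32.3% fell in EP300 KD1, and 27.9% rose and 29.9% fell in EP300 KD2. No test was made of these counts.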

How the data were processed

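RNA was sequenced from 12 MCF10AT libraries, 3 per line. Trizol was used for extraction and a stranded TruSeq kit for library preparation, per the labels' protocols. Reads were aligned to hg38 with HISAT2 2.1.0 and counted with featureCounts, per the submitters' processing notes. How featureCounts treated strand and multi-mapped reads is not stated there. The authors deposited whole-number counts, not normalised, for 29094 accessions. A RefSeq table named 28130 of the accessions and GENCODE another 490, which left 474 unnamed.

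Counts were filtered with filterByExpr (minimum count 10, about 0.292 CPM), scaled by TMM and fitted with the quasi-likelihood model of edgeR 4.0.16 (R 4.3.3) with 1 coefficient per group over the 12 libraries. P-values were adjusted over all 13424 genes tested, with a threshold of 0.05. SEs were derived from the F statistic. The common biological coefficient of variation was 0.030. The procedure was tested on simulated counts. DESeq2 1.42.0, limma 3.58.1 and other settings were alternatives. Within every group, replicates stood apart beyond sampling noise (chi-square over its degrees of freedom 1.86 to 4.54), so none were merged. The labels do not say whether replicates were separate cultures, so p-values measure the spread between libraries, which may be technical.

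The 41 members, the gene lists and the rules were chosen with earlier results of these data known, so no test was made of a list. Library-by-library values were given for up to 16 members averaging at least 1 CPM that were called with both hairpins, or differed between hairpins by at least 1 on the log2 scale, by largest absolute log2 fold change. BST2 and IFI6 averaged below 1 CPM, and library values of these and of EPSTI1 were added after they were seen. From each other list up to 4 genes with the smallest p were named. Sequences are RefSeq's. A listed gene and a promoter sequence that these rules select are not reported here.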

Additional observations from a re-analysis of the deposited data

Results flagged for a closer look

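The effect of the first hairpin against NS1 and that of the second against NS2 differed, by edgeR's quasi-likelihood test of the difference with Benjamini-Hochberg adjustment over all genes, for EP300 and 17 members. The difference, first minus second on the log2 scale, was above zero for BST2 (1.83, adjusted p = 0.0007), ISG20 (1.38, adjusted p = 1.9e-07), IFI6 (1.07, adjusted p = 0.0497), GBP2 (0.94, adjusted p = 1.1e-07), TRIM22 (0.57, adjusted p = 7.9e-08) and GBP1 (0.43, adjusted p = 6.5e-05). It was also above zero for PARP14 (0.40, adjusted p = 8.5e-08), IRF9 (0.38, adjusted p = 0.00047), STAT2 (0.33, adjusted p = 1.9e-05), IRF1 (0.33, adjusted p = 5.9e-05), IFI44L (0.28, adjusted p = 0.015), DTX3L (0.23, adjusted p = 0.00014), SP110 (0.21, adjusted p = 0.021) and EP300 (0.18, adjusted p = 0.0049).

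It was below zero for HERC6 (-0.77, adjusted p = 1.4e-06), PLSCR1 (-0.39, adjusted p = 0.00011), EIF2AK2 (-0.23, adjusted p = 0.00016) and OAS3 (-0.23, adjusted p = 0.00019). The IFI6 call was lost in 14 of 21 alternatives. That of SP110 was lost in 7 of 21, and its difference was 0.07 against both controls averaged (adjusted p = 0.26). That of IFI44L was lost in 3 of 21, with values from 0.21 to 1.05, the higher of these against both controls averaged. In that same setting the difference was 0.15 for GBP1, 0.15 for IRF1, -0.15 for EIF2AK2 and -0.37 for HERC6, each still called. For ISG20 and HERC6 the 2 hairpins were called in opposite directions. For GBP2, TRIM22, PLSCR1, OAS3, PARP14, SP110 and EIF2AK2 both hairpins were called in 1 direction and differed in size.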

How the results depend on the processing

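Alternatives were counted for 83 values of single genes: those called in the main fit, and the uncalled values of BST2, EPSTI1 and IFI6 in EP300 KD2. Other uncalled values, some of them near zero, were left out, so their changes of sign were not counted. Of the 83, 66 stayed on the same side of the threshold under every alternative fitted, and none reversed. Another 8 of 1792 alternatives passed where the reported value did not. Weaker calls, 71 of 1792, lay among ISG15, MX1, SP110, IFIH1, PARP9, EPSTI1, HERC6, IFI6, IFI44L and EP300; the cause was not tested. For EP300 the difference between hairpins was 0.11 (adjusted p = 0.063) with library totals alone. The members' median in EP300 KD2, -0.15, was -0.14 with DESeq2, -0.0828 with library totals alone, -0.10 with upper-quartile factors, -0.0835 without the filter, -0.17 against both controls averaged and -0.19 without members that overlap another gene. In EP300 KD1 the median, 0.02, was 0.0371 with upper-quartile factors, -0.0237 without the filter, -0.0324 at 1 CPM in 3 libraries, 0.14 against both controls averaged, -0.0372 without overlapping members and -0.0549 for members of at least 1 CPM, so its sign was not settled. NS2 against NS1 had a median of -0.06, and -0.0857 without overlapping members. Without the overlapping members, a setting added after the data were seen that leaves 26, those higher in EP300 KD2 numbered 5 and those higher with both hairpins 3. Against both controls averaged, the log2 fold change was 0.57 for ISG15 and -0.29 for SAMD9L in EP300 KD1, and -0.68 for SAMD9L, -0.80 for IFI44L and 0.25 for HERC6 in EP300 KD2.

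Leaving out 1 library at a time moved the medians between -0.026 and 0.0752 in EP300 KD1, -0.17 and -0.14 in EP300 KD2, and -0.0875 and -0.0342 in NS2 against NS1. Members higher in NS2 numbered 2 to 5, and 2 without NS1 replicate 3 or NS2 replicate 2. Same-numbered libraries showed no clear joint deviation (correlations -0.04 to 0.026), and the samples were not treated as pairs. Replicate 2 correlated best with its own number in each comparison (0.018, 0.022 and 0.026), so this check cannot exclude a weak pairing. With a replicate block, 13 members were higher and 12 lower in EP300 KD1 and 8 higher and 15 lower in EP300 KD2. The block ended the SP110 call between controls (0.14, adjusted p = 0.062) and the IFI6 difference (1.07, adjusted p = 0.058), and BST2 passed in EP300 KD2 (-0.66, adjusted p = 0.033). OAS2, BST2 and IFI6 rest on few counts, and the 9 untested members fell under the filter.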
